A study of Homo sapiens with 8 samples.

Results

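Transcripts of the insulin-like growth factor (IGF) binding proteins and of the receptors that IGFs and insulin use were followed while H1 cells, an established line of human embryonic stem cells, were differentiated stepwise into pharyngeal foregut endoderm. The members are 10 genes, chosen by name: the 7 binding proteins IGFBP1 to IGFBP7 and the 3 receptors IGF1R, IGF2R and INSR. All 10 were found among the 58780 genes with a GENCODE 29 identifier in each deposited table, and 9 of the 10 passed the filter on low counts that left 17446 genes to test. IGFBP1 did not pass it. RNA was depleted of ribosomal RNA and sequenced as strand-specific paired-end libraries, 2 for each of 4 stages. The stages are the undifferentiated stem cells, called hESC, and then in order the definitive endoderm (hDE), the anterior part of the foregut endoderm (hAFE) and the pharyngeal foregut endoderm (hPFE). The labels give no genotype, dose or day, and all groups share the H1 line, so everything here comes from 1 line. The hESC and hDE libraries are labelled as re-analysed from an earlier deposit and the hAFE and hPFE libraries are not. Stage and origin of the library therefore cannot be told apart in any comparison across that divide. Only hDE against hESC and hPFE against hAFE lie within 1 origin. Whether a stage's 2 libraries are separate cultures is not in the labels, and the p-values thus measure only how far these libraries spread.

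IGF1 and IGF2 are secreted peptides that act through IGF1R, a tyrosine kinase that signals through insulin receptor substrates, PI3K and AKT. INSR, the insulin receptor, is its close relative and also binds IGF2 in one of its splice forms, which gene-level counts do not separate. IGF2R, the cation-independent mannose 6-phosphate receptor, lacks a kinase, carries lysosomal enzymes and takes IGF2 to the lysosome for breakdown. IGFBP1 to IGFBP6 are secreted proteins that hold IGFs with high affinity and so limit or prolong their access to the receptors, while IGFBP7 binds them weakly. Insulin and IGF signalling is known to sustain human pluripotent stem cells, and stem cell media usually supply insulin or IGF1.

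The genes lie at the following hg38 positions in GENCODE 29, where each is annotated as protein-coding and was counted over its exons as a whole gene. IGFBP2 (chr2:216632828-216664436, plus strand) and IGFBP5 (chr2:216672105-216695525, minus strand) are neighbours whose ends lie 7668 bases apart. IGFBP1 (chr7:45888357-45893668, plus strand) and IGFBP3 (chr7:45912245-45921874, minus strand) form a second pair, 18576 bases apart. The remaining binding proteins are IGFBP4 (chr17:40443461-40457731, plus), IGFBP6 (chr12:53097436-53102345, plus) and IGFBP7 (chr4:57030773-57110385, minus). The receptors are IGF1R (chr15:98648539-98964530, plus), IGF2R (chr6:159969099-160113507, plus) and INSR (chr19:7112255-7294034, minus). POLR2B, on the opposite strand, overlaps IGFBP7 and held 2429 to 4045 counts per library. IGFBP7 itself held 1 or 2 counts in each hESC and hDE library. The other overlapping genes held at most 130 counts in a library, which was a pseudogene inside IGF2R on the same strand. AIRN, the antisense RNA at IGF2R, held 4 counts over all 8 libraries.

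Promoters of 4 members are shown because IGFBP3 and IGFBP5 had the largest changes among the members with a listed promoter and IGFBP4 the fall that held in every alternative tried, while IGF2R is shown as a receptor whose window holds repeated motif matches. The sequences are from the RefSeq promoter table (GRCh38.p14), which matched 8 of the 10 members; IGFBP1 and IGFBP7 were not among them. Each runs 5′ to 3′ on the gene's strand, from 250 to 11 bases before the start, and is 240 bases long. Capitals mark the motif matches described after them. The windows are chr7:45921283-45921522 (minus strand) for IGFBP3, chr2:216695560-216695799 (minus) for IGFBP5, chr17:40443200-40443439 (plus) for IGFBP4 and chr6:159968832-159969071 (plus) for IGF2R.
IGFBP3: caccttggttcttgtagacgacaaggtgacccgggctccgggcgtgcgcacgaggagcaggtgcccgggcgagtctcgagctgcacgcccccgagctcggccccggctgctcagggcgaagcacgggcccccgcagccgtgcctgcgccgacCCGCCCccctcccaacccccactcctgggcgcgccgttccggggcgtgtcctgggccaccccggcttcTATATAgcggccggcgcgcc
IGFBP5: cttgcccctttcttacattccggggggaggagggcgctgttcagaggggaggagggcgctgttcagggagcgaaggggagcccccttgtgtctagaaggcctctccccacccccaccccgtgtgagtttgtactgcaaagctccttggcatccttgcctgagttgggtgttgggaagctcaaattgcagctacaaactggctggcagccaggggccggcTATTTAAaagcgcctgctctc
IGFBP4: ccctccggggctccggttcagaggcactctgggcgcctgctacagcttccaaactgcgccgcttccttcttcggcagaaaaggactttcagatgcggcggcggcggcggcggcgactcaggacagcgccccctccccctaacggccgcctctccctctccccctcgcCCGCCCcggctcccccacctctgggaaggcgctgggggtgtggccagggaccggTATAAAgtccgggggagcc
IGF2R: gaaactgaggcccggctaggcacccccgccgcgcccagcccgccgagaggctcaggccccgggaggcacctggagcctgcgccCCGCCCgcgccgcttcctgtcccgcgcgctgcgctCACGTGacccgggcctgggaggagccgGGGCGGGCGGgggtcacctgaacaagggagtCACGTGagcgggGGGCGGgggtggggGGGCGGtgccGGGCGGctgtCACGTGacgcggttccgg
Each of the 3 binding protein promoters holds a TATA-like match close to the place where a TATA box usually stands. IGFBP3 has TATATA beginning 30 bases before the start, IGFBP5 has TATTTAA at 31 bases and IGFBP4 has TATAAA at 29 bases. These 3 spellings were searched on the gene's strand and may overlap one another. They occur in 3.7%, 2.23% and 6.71% of the 35116 promoter windows of this length, and 3.45% of windows hold any of them beginning 20 to 40 bases before the start. No other window of a member holds one. GGGCGG, the GC box core, was searched on both strands and occurs in 41.37% of windows. It matched 6 times in IGF2R, with 2 of the matches overlapping, once in IGFBP3, once in IGFBP4 and not in IGFBP5, while 1.91% of all windows hold 6 or more. CACGTG, an E-box that reads the same on both strands, matched 3 times in IGF2R. It occurs in 6.01% of windows, and 0.08% of windows hold 3 or more. GTAAACA, a forkhead core searched on both strands, occurs in 2.85% of windows and in none of the 4 shown. The windows held 46 CpG in IGF1R, 31 in IGF2R and 28 in INSR, and 30 in IGFBP3, 22 in IGFBP4 and 7 in IGFBP5. A match is a description of the letters only.

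The libraries held 12687161 to 17802900 counts assigned to genes. The stage labels were checked against landmark genes. POU5F1 was at 858 to 942 CPM, counts scaled to a common library size, in the hESC libraries, SOX17 at 126 to 149 CPM in the hDE libraries, and PAX9 at 95.7 and 28.6 CPM in the hPFE libraries, where the other pharyngeal genes PAX1 and FOXE1 were also present at 17.3 to 67.0 CPM. TBX1, another pharyngeal gene, was at 1.21 and 1.95 CPM in hPFE, and PAX8, a thyroid gene, was at or near 0 there. The 2 libraries of hAFE and of hPFE differed more than those of the earlier stages. Over 9852 genes the standard deviation of the log2 difference between the 2 libraries was 0.59 in hAFE and 0.56 in hPFE, against 0.31 in hESC and 0.27 in hDE. Levels below are CPM on TMM-scaled library sizes, given per library and as mean ± SD (n = 2). They compare a gene between stages and not 1 gene with another. Fold changes are on the log2 scale with their standard error (SE), and a gene is called where the adjusted p of edgeR's quasi-likelihood test, adjusted by Benjamini-Hochberg over all 17446 genes, is under 0.05. The fit takes each gene's spread from all 8 libraries and not only from the 2 stages compared. A pair of stages that was not called may therefore still differ beyond the spread of its own libraries.

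Between 2 and 6 of the 9 measured members were called in each comparison. From hESC to hDE, 5 of the 9 measured members were called: IGFBP5, IGFBP6, IGF1R and IGF2R rose and IGFBP4 fell. Of all tested genes, 20.3% rose and 21.6% fell in that comparison. From hDE to hAFE, IGFBP3 rose and IGF1R fell, with 15.0% of all genes higher and 15.2% lower. From hAFE to hPFE, IGFBP7 and IGF1R rose and no member fell, where 4.77% of all genes rose and 2.71% fell. Against hESC, hAFE had 4 members higher (IGFBP3, IGFBP5, IGF1R, IGF2R) and 1 lower (IGFBP4), beside 19.2% and 20.6% of all genes. hPFE against hDE had 3 higher (IGFBP3, IGFBP5, IGFBP7) and 1 lower (IGFBP6), beside 16.6% and 17.0% of all genes. hPFE against hESC had 5 higher (IGFBP3, IGFBP5, IGFBP7, IGF1R, IGF2R) and 1 lower (IGFBP4), beside 21.6% and 23.3% of all genes. The median log2 fold change of the 9 members was 0.09, 0.26, 0.49, 1.10, 0.75 and 1.02 in these 6 comparisons in the order given. That of all tested genes lay between -0.034 and 0.016, where TMM scaling keeps it near 0. The members were chosen by name, and their median against that of all genes was not tested. The counts were highest against hESC, as was the share of all genes called. Stages are shared between the comparisons, so these counts are not independent of one another. Since the RNA is bulk, fewer cells of a type and less RNA per cell cannot be told apart.

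**Figure D1:**
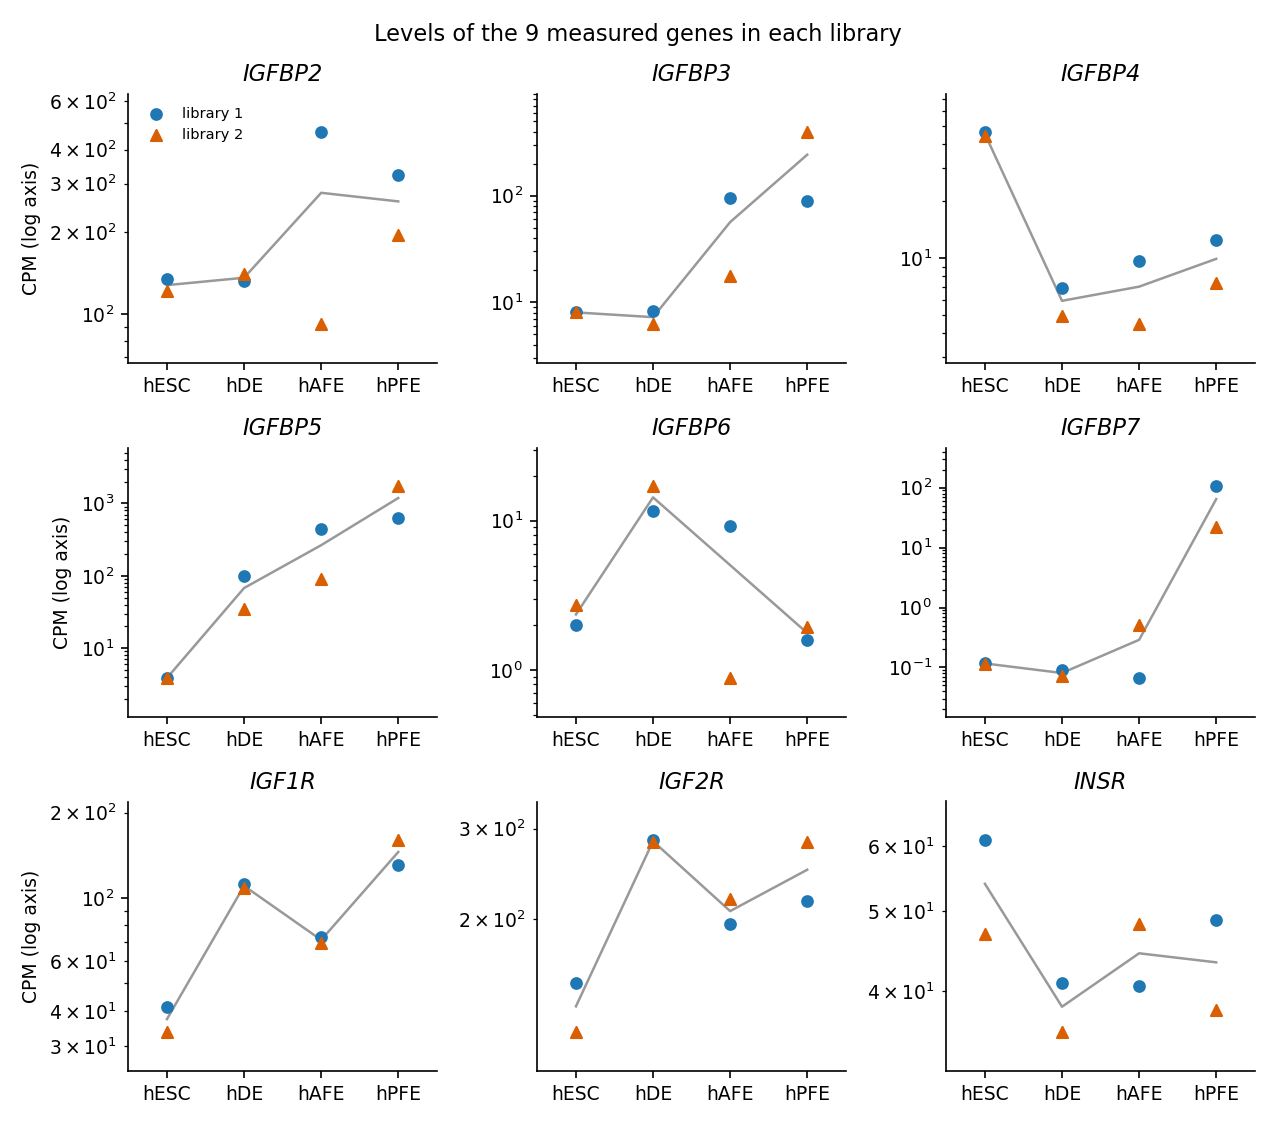
CPM (log axis, each panel on its own scale) of the 9 measured members by stage; circles and triangles are the 2 libraries and the grey line joins stage means. IGFBP5 goes from 3.90 and 3.84 CPM in hESC to 630.7 and 1740 CPM in hPFE, IGFBP7 is at 0.512 CPM or less in the first 6 libraries and at 107.1 and 22.2 CPM in hPFE, and IGFBP2, IGFBP3, IGFBP5 and IGFBP6 lie far apart in the 2 hAFE libraries.

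IGFBP5, a binding protein that also attaches to extracellular matrix, rose from the stem cells to every later stage, with a higher mean at each. Its levels were 3.90 and 3.84 CPM in hESC, 100.1 and 35.2 in hDE, 439.3 and 89.4 in hAFE, and 630.7 and 1740 in hPFE. The hESC pair lay far below every other library, hDE library 1 lay just above hAFE library 2, and both hPFE libraries lay above all others. Stage means ± SD were 3.87 ± 0.043, 67.7 ± 45.9, 264 ± 247 and 1186 ± 785 CPM. The rise from hESC was called for hDE (4.12, SE 0.92, adjusted p = 0.00985), hAFE (6.09, SE 0.99, adjusted p = 0.00303) and hPFE (8.25, SE 1.08, adjusted p = 0.00104). hPFE also stood above hDE (4.13, SE 0.87, adjusted p = 0.00931). Of neighbouring stages in this order, the differences of hDE and hAFE (1.97, adjusted p = 0.101) and of hAFE and hPFE (2.16, adjusted p = 0.137) were not called. The hDE call was lost without hESC library 1 (adjusted p = 0.0704), without hESC library 2 (0.0731), without hDE library 1 (3.18, adjusted p = 0.0574) and on TPM values (1.66, adjusted p = 0.167), and the call of hPFE over hDE without hDE library 2 (3.60, adjusted p = 0.0745). Both other calls against hESC held in all 17 alternatives, at 4.52 to 6.82 (hAFE) and 7.33 to 8.80 (hPFE) with 1 library left out, the low ends without hAFE library 1 and without hPFE library 2. Without hAFE library 1 the step from hAFE to hPFE was called (3.72, adjusted p = 0.0342) and without hPFE library 2 it was 1.24, not called, and without hAFE library 2 the step from hDE to hAFE was (2.71, adjusted p = 0.0175).

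IGFBP3, the main IGF carrier of serum, stayed low in the first 2 stages and rose later. It was at 8.05 and 8.03 CPM in hESC, 8.28 and 6.23 in hDE, 95.4 and 17.6 in hAFE, and 88.6 and 396.2 in hPFE. All 4 foregut libraries lay above all 4 earlier ones, a divide at which library origin also changes, but hAFE and hPFE overlapped. The means ± SD were 8.04 ± 0.015, 7.25 ± 1.45, 56.5 ± 55.0 and 242 ± 218 CPM. hPFE was higher than hESC (4.91, SE 0.95, adjusted p = 0.00504) and than hDE (5.07, SE 0.97, adjusted p = 0.00617). hAFE was higher than hDE (2.97, SE 0.90, adjusted p = 0.0410) and than hESC (2.81, SE 0.88, adjusted p = 0.0369). The differences of hDE and hESC (adjusted p = 0.907) and of hAFE and hPFE (2.10, SE 0.82, adjusted p = 0.157) were not called. The hAFE calls rested on hAFE library 1: without it the rise was 1.29 over hDE (adjusted p = 0.260) and 1.13 over hESC (adjusted p = 0.268), and hPFE against hAFE was called (3.78, adjusted p = 0.0386), whereas without hPFE library 2 that step was 0.64. They were also lost without any single hESC or hDE library (adjusted p = 0.0640 to 0.204) and on TPM (0.0574 over hDE and 0.107 over hESC), and that over hDE with length offsets (0.0509). The call of hPFE over hDE was lost without hDE library 1 (5.27, adjusted p = 0.0537) or hDE library 2 (4.91, adjusted p = 0.0650), and that over hESC without hESC library 2 (4.92, adjusted p = 0.05001). Without hPFE library 2 the rise was 3.61 over hDE and 3.45 over hESC.

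IGFBP2, a binding protein that is abundant in fetal tissues, was present in every library at 92.0 CPM or more. Its levels were 134.4 and 121.3 CPM in hESC, 132.2 and 139.8 in hDE, 463.7 and 92.0 in hAFE, and 322.9 and 194.1 in hPFE. hAFE held both the highest and the lowest library of the series, and both hPFE libraries lay above all hESC and hDE libraries. The means ± SD were 128 ± 9.31, 136 ± 5.42, 278 ± 263 and 259 ± 91.1 CPM. None of the 6 comparisons was called, with hPFE over hESC at 1.02 (SE 0.61, adjusted p = 0.208) and hPFE over hDE at 0.93 (SE 0.61, adjusted p = 0.280). Both became called without hAFE library 1 (adjusted p = 0.00892 and 0.0164), without hAFE library 2 (0.00886 and 0.0164) and in fits of only the 4 libraries compared (0.0222 and 0.0352). The direction of hAFE against the earlier stages turned on 1 library. It was -0.57 against hDE and -0.48 against hESC without hAFE library 1, and 1.77 (adjusted p = 0.00251) and 1.86 (adjusted p = 0.00216) without hAFE library 2. hPFE over hAFE was 1.48 (adjusted p = 0.0276) without hAFE library 1.

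IGFBP4, whose hold on IGFs is released when the protease PAPPA cuts it, was the 1 member that fell on leaving the stem cell stage and stayed low. It stood at 46.6 and 44.4 CPM in hESC, 6.94 and 4.93 in hDE, 9.65 and 4.46 in hAFE, and 12.4 and 7.36 in hPFE. Both hESC libraries lay above all others, and the 3 later stages overlapped apart from hPFE lying just above hDE. The fall from hESC was 2.94 to hDE (SE 0.41, adjusted p = 0.00124), 2.68 to hAFE (SE 0.40, adjusted p = 0.00212) and 2.19 to hPFE (SE 0.39, adjusted p = 0.00349), and all 3 calls held in all 17 alternatives. With 1 hAFE library left out, the fall to hAFE lay between 3.35 (without library 1) and 2.24 (without library 2). No comparison between the later stages was called in the reported fit, with adjusted p from 0.184 to 0.662. hPFE over hDE, whose libraries do not overlap, was called without the count filter (0.77, adjusted p = 0.0275) and on log2(TPM + 1) (1.17, adjusted p = 0.00988).

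IGFBP6, which prefers IGF2 over IGF1, had its highest level in definitive endoderm. It was at 1.98 and 2.71 CPM in hESC, 11.6 and 17.1 in hDE, 9.19 and 0.878 in hAFE, and 1.58 and 1.95 in hPFE. The hDE libraries lay above all others, hAFE spanned the whole range below them, and hPFE lay just under hESC. hDE stood above hESC (2.61, SE 0.84, adjusted p = 0.0391) and above hPFE, which was lower by 3.02 (SE 0.87, adjusted p = 0.0305). Both calls sat close to the threshold. On log2(TPM + 1) both were lost, at 1.56 for hDE against hESC (adjusted p = 0.138) and -1.59 for hPFE against hDE (adjusted p = 0.0855). The first was lost without any 1 of the 4 libraries compared (adjusted p = 0.0922 to 0.186), and the second without any single hESC, hDE or hPFE library (adjusted p = 0.0554 to 0.140). In the order hPFE, hESC, hAFE, hDE no difference between neighbours was called (adjusted p = 0.720, 0.315 and 0.195). Without hAFE library 1, hAFE was called below hDE (-4.02, adjusted p = 0.00121). Without hAFE library 2 it was called above hESC (1.96, adjusted p = 0.00698), and hPFE below it (-2.39, adjusted p = 0.0127).

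IGFBP7, a low-affinity member known from vessels and connective tissue cells, was seen at depth only in the last stage. It had 2 and 2 counts in the hESC libraries, 1 and 1 in hDE, 1 and 7 in hAFE, and 1764 and 308 in hPFE. In CPM this was 0.0661 to 0.512 in the first 6 libraries against 107.1 and 22.2 in hPFE, without overlap. The counts of hPFE and hDE, 2072 against 2, had a ratio of 855 once scaled to library size, with a 95% counting interval of 236 to 7067 that covers counting error only. hPFE was called higher than hAFE (7.81, SE 0.97, adjusted p = 0.00614), hESC (9.02, SE 1.06, adjusted p = 0.000699) and hDE (adjusted p = 0.000855), and the other 3 comparisons were not called. The rise over hAFE was lost when only its 4 libraries were fitted (7.85, adjusted p = 0.0826), and it ran from 6.26 without hPFE library 1 to 9.76 without hAFE library 2. Without hPFE library 1 the rise over hESC was 7.47. Within hPFE, library 1 was 4.82 times as high as library 2. Genes of connective tissue cells moved the same way. All 10 on the list used here were at 1 CPM or more in hPFE library 1 and 7 of 10 in library 2, their summed level was 1602 and 265.5 CPM, and 9 of 10 were higher in library 1, led by COL3A1 (1232 against 29.7 CPM), with LUM (11.4 against 87.5 CPM) as the exception. Their sum was 99.2 and 102.4 CPM in hESC, 21.2 to 23.9 in hDE and 15.2 to 35.0 in hAFE. PRRX1 and POSTN were at 0 in both hDE libraries and in hAFE library 1, and DCN at 0 in 4 of the first 6 libraries. The 8 endothelial genes summed to 11.2 and 11.5 CPM in hPFE, with 3 of 8 at 1 CPM or more, and their sum was 225.0 to 226.0 CPM in hESC, mostly KDR; PECAM1 was at 0.433 CPM or less in all 8 libraries. The part of such cells in the IGFBP7 result was not tested.

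IGFBP1, a binding protein made by liver and decidua, had 1 count in hAFE library 1 and 0 in the other 7. Where a stage showed 0 in both libraries, a total of 3 counts remains possible, which is 0.0874 CPM in hESC, 0.120 in hDE and 0.0989 in hPFE. Its transcript was not detectable at this depth beyond that single count.

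**Figure D2:**
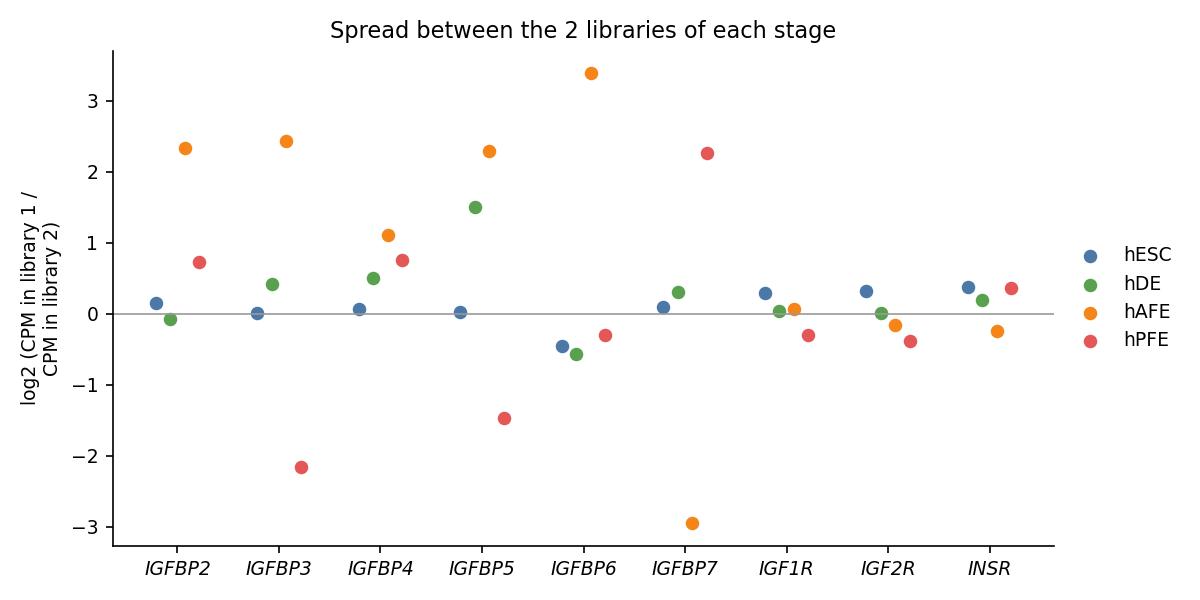
Log2 ratio of CPM in library 1 to CPM in library 2 of the same stage, for each measured member; colours are stages and 0 means equal levels. The hAFE points of IGFBP2, IGFBP3 and IGFBP5 lie between 2.30 and 2.44 while those of the 3 receptors lie between -0.25 and 0.06. The IGFBP7 point of hAFE rests on 1 and 7 counts.

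The 2 hAFE libraries lay further apart in 6 binding proteins than in the 3 receptors. hAFE library 1 held 5.04 times as much IGFBP2, 5.42 times as much IGFBP3, 4.91 times as much IGFBP5 and 10.5 times as much IGFBP6 as library 2, whereas the receptors differed by factors of 1.04 to 1.19. In hPFE, library 2 held 4.47 times as much IGFBP3 and 2.76 times as much IGFBP5, and library 1 held 4.82 times as much IGFBP7. IGFBP2 and IGFBP4 differed there by factors of 1.66 and 1.69, above the 1.23 to 1.30 of the receptors, and IGFBP6 by 1.23. IGFBP3 and IGFBP7 thus went opposite ways between the hPFE libraries. Beside this, the neural list summed to 514.7 and 302.5 CPM in hAFE libraries 1 and 2 with 4 of 5 genes higher in library 1. The trophoblast and amnion list summed to 26.2 and 124.5 CPM there, with 2 of 7 genes higher in library 1. CGA and ISL1 held most of that sum in library 2, and ISL1 is also on the pharyngeal list. Markers of the stage itself differed too. The pharyngeal list summed to 73.0 and 192.8 CPM in hAFE libraries 1 and 2 (2 of 10 genes higher in library 1). ISL1 of that list was at 5.22 and 39.8 CPM. The anterior foregut list summed to 304.4 and 451.0 CPM there (4 of 7 higher in library 1), and its genes went both ways. OTX2 was at 17.0 and 332.6 CPM, whereas SOX2 was at 158.2 and 57.2 CPM. FOXA1 was at 78.6 and 26.7 CPM and FOXA2 at 41.2 and 17.7 CPM. SOX1 and PAX6 of the neural list were at most 2.37 CPM in every library. CGA was at 4.56 and 68.96 CPM in hAFE, and in hPFE KRT7 was at 12.4 and 161.8 CPM. The part of such cells, or of a difference in stage, in these values was not tested.

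Per transcript length, IGFBP2 was the leading binding protein in 7 of 8 libraries and gave way to IGFBP5 in 1 hPFE library. TPM, which divides by effective length, compares genes within a library, and each share here is of the summed TPM of the 7 binding proteins. IGFBP2 took 83.6% and 82.4% in hESC, 78.8% and 79.2% in hDE, 79.9% and 80.5% in hAFE, and 61.4% and 31.7% in hPFE. The 2 hAFE libraries, whose IGFBP2 levels differed 5.04-fold, had nearly the same shares of IGFBP2, IGFBP3 (6.74% and 6.09%) and IGFBP5 (10.3% and 10.4%). The second place changed from stage to stage. It belonged to IGFBP4 in hESC (11.9% and 12.2%), to IGFBP6 in hDE (9.65% and 15.0%), to IGFBP5 in hAFE, and in hPFE to IGFBP7 in library 1 (15.53%, with IGFBP5 at 15.48%) and to IGFBP2 in library 2, where IGFBP5 took 38.7% and IGFBP3 25.6%. The summed TPM was 86.0 and 84.6 in hESC, 64.5 and 69.5 in hDE, 420.0 and 81.2 in hAFE, and 387.6 and 628.0 in hPFE. TPM depends on the share of small structural and mitochondrial RNA in a library, so these sums are not a measure of change between stages.

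**Figure D3:**
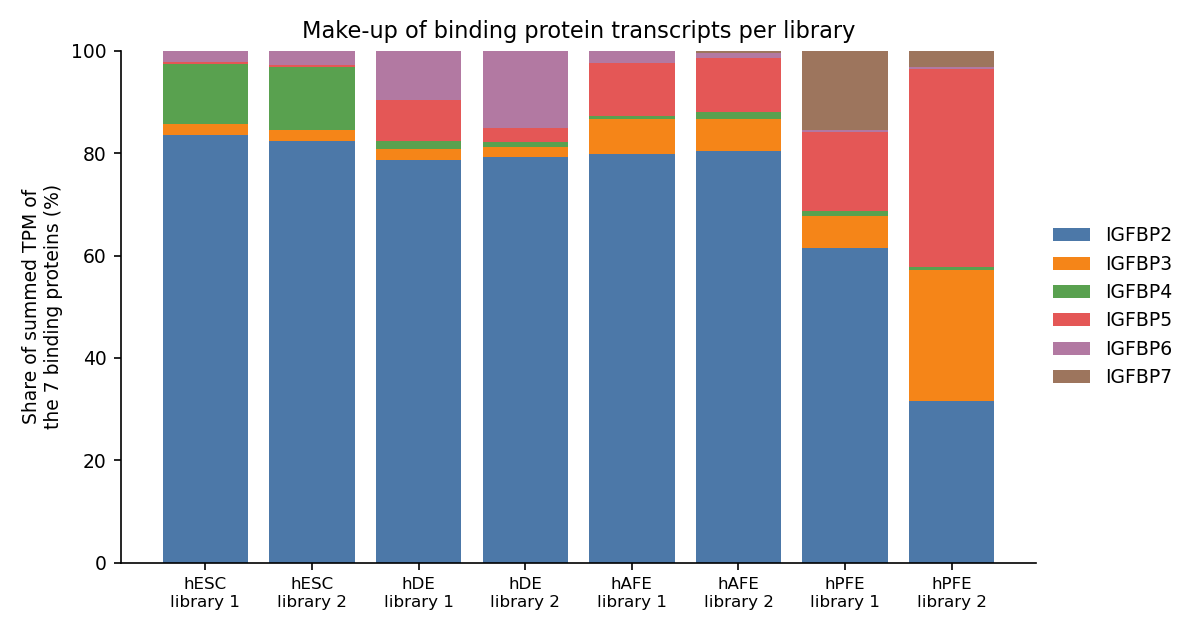
Share (%) of the summed TPM of the 7 binding proteins taken by each gene in the 8 libraries. IGFBP2 fills 78.8% to 83.6% of the bar in the first 6 libraries and 61.4% and 31.7% in hPFE, where IGFBP5, IGFBP3 and IGFBP7 take the rest.

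IGF1R, the signalling receptor for both IGFs, rose from hESC to hDE, fell back in hAFE and was highest in hPFE. It was at 41.2 and 33.6 CPM in hESC, 111.8 and 108.7 in hDE, 72.6 and 69.6 in hAFE, and 130.3 and 160.1 in hPFE. No 2 stages overlapped. The means ± SD were 37.4 ± 5.35, 110 ± 2.19, 71.1 ± 2.13 and 145 ± 21.0 CPM. The rise was 1.56 to hDE (SE 0.16, adjusted p = 0.000333), 0.93 to hAFE (SE 0.16, adjusted p = 0.00354) and 1.96 to hPFE (SE 0.16, adjusted p = 0.000176), each against hESC. hAFE lay 0.63 below hDE on the fitted scale (log2 fold change -0.63, SE 0.16, adjusted p = 0.0184), and hPFE rose over hAFE by 1.03 (SE 0.16, adjusted p = 0.0110). Of stages next to each other in level, only the difference of hDE and hPFE was not called (0.40, adjusted p = 0.0819). That difference was 0.54 without hPFE library 1. It was called with length offsets (0.65, adjusted p = 0.0356) and on log2(TPM + 1) (1.55, adjusted p = 0.00627). The fall from hDE to hAFE was lost without hDE library 1 (-0.61, adjusted p = 0.103), hDE library 2 (-0.64, 0.0894), hAFE library 1 (-0.66, 0.0533) or hAFE library 2 (-0.60, 0.0694), and with length offsets (-0.36, 0.198). It turned to a rise of 0.42 (adjusted p = 0.310) on the log2(TPM + 1) scale. The rise from hAFE to hPFE was lost with only its 4 libraries fitted (adjusted p = 0.0933) and on TPM (0.104), as were those from hESC to hDE and to hAFE on TPM (0.231 and 0.0619). The rise from hESC to hPFE held in all 17 alternatives.

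IGF2R followed IGF1R at the first step, with a smaller change. Its levels were 150.1 and 120.6 CPM in hESC, 285.2 and 282.1 in hDE, 195.5 and 219.4 in hAFE, and 216.6 and 282.5 in hPFE. hESC lay below all later libraries, and hAFE and hPFE overlapped. hDE (1.07, SE 0.18, adjusted p = 0.00280), hAFE (0.62, SE 0.18, adjusted p = 0.0266) and hPFE (0.88, SE 0.18, adjusted p = 0.00576) were each called above hESC. In the order hESC, hAFE, hPFE, hDE the differences between neighbours among the last 3 were not called (adjusted p = 0.374 and 0.451). The call for hAFE was lost without hESC library 1 (adjusted p = 0.0596), hESC library 2 (0.178), hDE library 1 (0.0559), hDE library 2 (0.0585) or hAFE library 2 (0.0984), and that for hPFE without hESC library 2 (0.0576). The hDE call was lost on TPM (0.50, adjusted p = 0.207). hAFE was not called below hDE (-0.45, adjusted p = 0.0885), but was without hPFE library 1 (adjusted p = 0.0442) or hPFE library 2 (0.0449).

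INSR had the narrowest range of stage means among the 9 measured members and was called in none of the 6 comparisons in the count fit. It stood at 61.0 and 47.0 CPM in hESC, 41.0 and 35.7 in hDE, 40.6 and 48.3 in hAFE, and 48.8 and 38.0 in hPFE. hDE lay below hESC without overlap, and the 2 foregut stages overlapped with both. The largest fitted difference was that of hDE from hESC (-0.50, SE 0.19, adjusted p = 0.0736), which was called without hPFE library 1 (adjusted p = 0.0477) or hPFE library 2 (0.0467) and when only the 4 libraries of the comparison were fitted (0.00952) or the count filter was dropped (0.0426). On log2(TPM + 1) it was called in hDE against hESC (-0.63, adjusted p = 0.0465), hAFE against hDE (0.71, adjusted p = 0.0266) and hPFE against hDE (0.85, adjusted p = 0.00960). The highest stage mean was 54.0 ± 9.93 CPM and the lowest 38.3 ± 3.71 CPM.

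The balance of the 2 kinase receptors shifted towards IGF1R once cells left the stem cell stage. The ratio of IGF1R to INSR in TPM was 0.582 and 0.841 in hESC, 2.07 and 2.43 in hDE, 1.65 and 1.52 in hAFE, and 2.39 and 4.67 in hPFE. INSR was ahead in both hESC libraries and IGF1R in the other 6, and the ratio of raw counts, which uses no length estimate, gave the same order of the 2 genes (0.675 and 0.716 in hESC, 1.44 to 4.22 later). The ratio of IGF2R to IGF1R in TPM ran from 2.74 to 3.91 in the first 6 libraries and was 1.93 and 1.63 in hPFE.

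**Figure D4:**
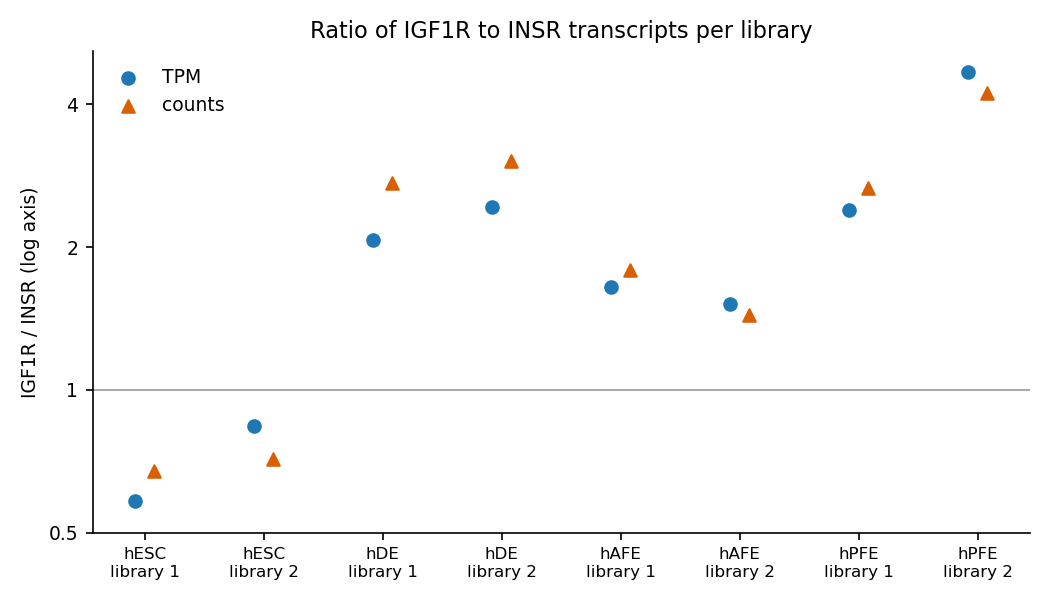
Ratio of IGF1R to INSR in each library (log axis), from TPM (circles) and from counts (triangles); the line marks 1. Both hESC libraries lie below 1 and the other 6 lie above it, between 1.44 and 4.67.

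**Figure D5:**
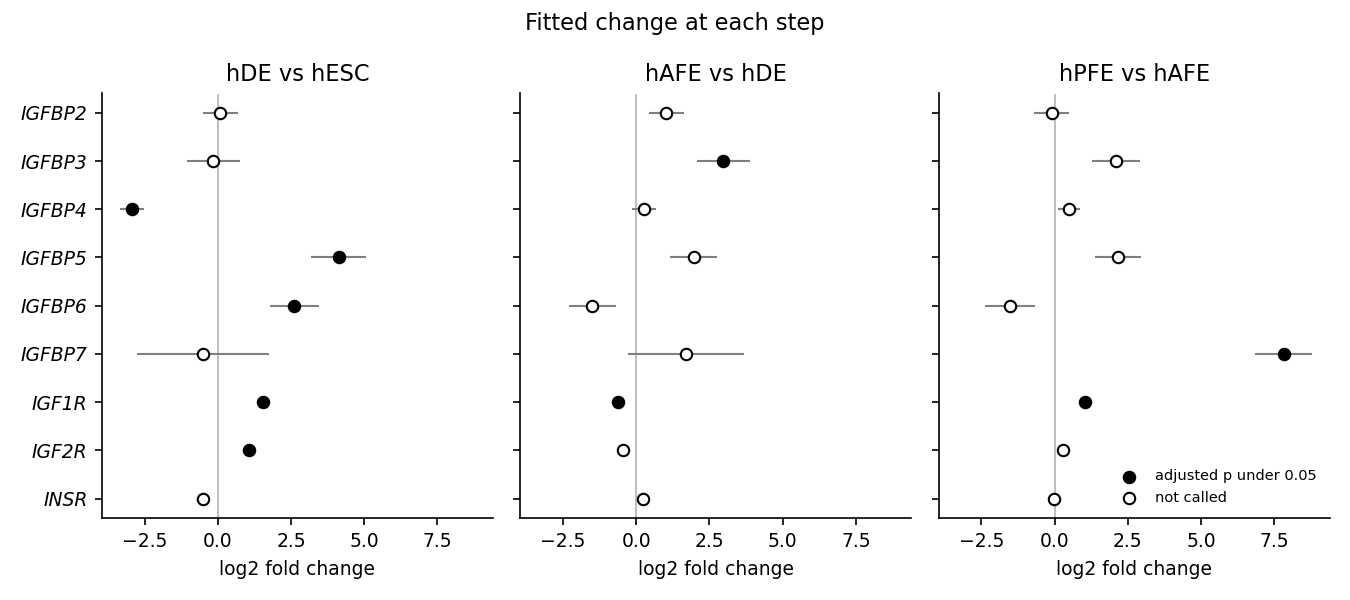
Fitted log2 fold change ± SE of each measured member at the 3 successive steps; filled points have an adjusted p under 0.05. At the first step 5 members are filled (4 higher, 1 lower) and 2 at each later step, and the bars of the receptors are about as short as the points are wide.

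Around the members, 61 other genes of the IGF pathway were listed, and 56 were measured. INS, the insulin gene, was at 0 in all libraries, and IGFALS, ESM1, CCN3 and INSRR did not pass the filter. Of the 56, 15 rose and 11 fell from hESC to hDE, 15 rose and 14 fell from hDE to hAFE, and 8 rose and 3 fell from hAFE to hPFE. Against hESC, 16 rose and 14 fell in hAFE and 24 rose and 12 fell in hPFE, and against hDE 19 rose and 11 fell in hPFE. Their median log2 fold change in the comparisons in the order used above was 0.20, -0.003, 0.17, 0.25, 0.41 and 0.50. The share of all genes called in each comparison is given with the member counts above.

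Both IGF ligands appeared in the foregut libraries. In the reported fit they were called only across the divide of library origin, where stage and origin cannot be told apart. IGF2, the main fetal IGF, was at 0.601 and 0.170 CPM in hESC, 1.78 and 1.09 in hDE, 218.7 and 19.2 in hAFE, and 195.1 and 84.1 in hPFE. The 4 foregut libraries lay above the 4 earlier ones, and hAFE and hPFE overlapped. IGF2 rose from hDE to hAFE (6.39, SE 1.24, adjusted p = 0.00725) and stood higher than hDE in hPFE (6.62, SE 1.25, adjusted p = 0.00585), and higher than hESC in both (8.26, SE 1.41, adjusted p = 0.00370, and 8.49, SE 1.41, adjusted p = 0.00275). The calls over hDE were lost without hDE library 1 (adjusted p = 0.0603 and 0.0510) or hDE library 2 (0.0726 and 0.0632), and the rise from hDE to hAFE was 3.76 without hAFE library 1. Against hESC, hAFE ranged from 5.62 (without hAFE library 1) to 9.38 (without hESC library 1) and hPFE from 7.76 (without hPFE library 1) to 9.60 (without hESC library 1). Without hAFE library 1 hPFE was also called above hAFE (2.86, adjusted p = 0.0218). hAFE library 1 thus held more IGF2, by a factor of 11.4, as well as more IGFBP2, IGFBP3, IGFBP5 and IGFBP6. IGF1 was at 0 to 0.120 CPM in hESC and hDE, at 7.40 and 3.44 in hAFE, and at 4.98 and 6.13 in hPFE, and was called higher in both foregut stages against both earlier ones (adjusted p = 0.00115 to 0.00171). The hESC and hDE libraries held 1 or 2 counts per stage, so no fold is given.

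Proteases of binding proteins and their inhibitors moved with stage too. STC1, which inhibits PAPPA, went from 49.2 and 52.1 CPM in hESC to 865.0 and 799.5 in hDE (4.04, SE 0.35, adjusted p = 0.000170), then to 2.84 and 4.46 in hAFE (-7.84, SE 0.42, adjusted p = 3.58e-05) and 4.49 and 9.96 in hPFE. STC2, the other stanniocalcin, was also called higher in hDE than in hESC and lower in hAFE than in hDE. PAPPA, the protease that cuts IGFBP4 and IGFBP5, was at 2.10 and 4.13 CPM in hESC, 0.801 and 0.435 in hDE, 2.58 and 0.878 in hAFE, and 45.8 and 28.6 in hPFE. It was called lower in hDE than in hESC. Its rise from hAFE to hPFE was 4.41 (SE 0.56, adjusted p = 0.00640), lost only when the 4 libraries compared were fitted alone (adjusted p = 0.0666), and it stood above hDE by 5.92 (SE 0.64, adjusted p = 0.000521) and above hESC by 3.57 (SE 0.53, adjusted p = 0.00166). PAPPA2, a relative that cuts IGFBP5 and IGFBP3, rose at the same step, from 0.264 and 0.146 to 4.61 and 8.22 CPM. HTRA1, another secreted protease, was at 28.5 and 3.97 CPM in hPFE against 1.32 and 1.02 in hAFE (3.78, SE 0.84, adjusted p = 0.0381). That rise missed the threshold in 8 of 17 alternatives and was 1.75 without hPFE library 1, the library with more connective tissue gene counts. The part of connective tissue cells in the HTRA1 rise was not tested. ADAMTS1, a metalloprotease, rose from hDE to hAFE (2.62, SE 0.72, adjusted p = 0.0286), lost in 7 of 17 and at 0.76 without hAFE library 2. Against hESC its rise in hAFE was 3.40 (SE 0.74, adjusted p = 0.00997), lost without hESC library 1 or hESC library 2 (adjusted p up to 0.0752) and at 1.55 without hAFE library 2. IGFBPL1, a binding protein-like gene, followed STC1: 12.1 and 9.89 CPM in hESC, 69.8 and 88.6 in hDE (2.85, adjusted p = 0.00102), 2.18 and 5.92 in hAFE (-4.30, adjusted p = 0.000347) and 4.92 and 4.91 in hPFE. Of the related CCN genes, CCN1 rose from hESC to hDE (2.25, adjusted p = 0.00109) and was higher in hAFE than in hESC (2.60, adjusted p = 0.000800), and CCN2 was higher in hPFE than in hESC (2.86, adjusted p = 0.000664).

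Downstream, adaptors and PI3K pathway genes were called in both directions in every comparison, as were genes at large (20.3% higher and 21.6% lower from hESC to hDE, 15.0% and 15.2% from hDE to hAFE, 4.77% and 2.71% from hAFE to hPFE). No pathway gene was called from hAFE to hPFE when only those 4 libraries were fitted. Of 12 measured adaptors and regulators, 3 rose and 3 fell from hESC to hDE, 4 rose and 6 fell from hDE to hAFE, and 2 rose and 1 fell from hAFE to hPFE. GRB10, an adaptor that restrains insulin and IGF receptors, was at 105.4 and 99.95 CPM in hESC, 308.3 and 291.9 in hDE, 55.7 and 41.4 in hAFE and 82.6 and 77.4 in hPFE. Its fall from hDE to hAFE was 2.63 (SE 0.17, adjusted p = 6.41e-05). ENPP1, which dampens the insulin receptor, fell from 73.3 and 77.7 CPM in hESC to 13.2 and 12.8 in hDE (-2.54, SE 0.32, adjusted p = 0.000811) and was also lower in hAFE (-3.55, adjusted p = 0.000376) and hPFE (-3.01, adjusted p = 0.000476) than in hESC. Of 26 PI3K, AKT and mTOR genes, 7 rose and 5 fell from hESC to hDE, 7 rose and 4 fell from hDE to hAFE, and 3 rose and 2 fell from hAFE to hPFE. PIK3R3, a regulatory subunit of PI3K, rose from 23.3 and 32.0 CPM in hDE to 165.5 and 132.2 in hAFE (2.43, SE 0.20, adjusted p = 0.000180). It was lower in hPFE than in hAFE (-0.88, adjusted p = 0.0346), which missed the threshold in 10 of 17 alternatives. INPP5D, a lipid phosphatase that opposes PI3K, was at 10.2 and 7.24 CPM in hESC, 0.0890 and 0.217 in hDE, 3.11 and 5.85 in hAFE and 15.2 and 23.6 in hPFE. It was higher in hPFE than in hDE (6.86, SE 0.59, adjusted p = 0.000188) and than in hAFE (2.12, SE 0.40, adjusted p = 0.0234), the latter lost in 6 of 17. The hDE libraries held only 1 and 3 INPP5D counts, so the size of the rise over hDE is uncertain. The catalytic subunit gene PIK3CD was lower in hDE than in hESC (-1.75, adjusted p = 0.00262), and PIK3CB was lower in hPFE than in hDE (-2.55, adjusted p = 8.1e-05). The forkhead genes FOXO4 (-1.28 in hDE against hESC, adjusted p = 0.0132) and FOXO1 (-1.95 in hAFE against hESC, adjusted p = 0.00210), targets of AKT, were lower in those comparisons, while FOXO1 was higher in hPFE than in hAFE (1.47, adjusted p = 0.0264) and FOXO3 higher in hPFE than in hESC (1.28, adjusted p = 0.0165). The FOXO4 call was lost without hESC library 2 or hDE library 1 (adjusted p up to 0.0928). RPTOR, a subunit of an mTOR complex, fell from hAFE to hPFE (-0.66, adjusted p = 0.0309), though not in 9 of 17 alternatives. EIF4EBP1, a translation repressor that mTOR inactivates, was lower in hPFE than in hESC (-1.35, SE 0.12, adjusted p = 0.000270).

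The genes whose pattern was most like each member were found by Pearson correlation of log2 CPM over the 8 libraries, among genes at 10 CPM or more in their highest stage. The points share stage, origin and depth, and the values are a description of 8 libraries. IGF2R was closest to SEC16A (r = 0.995) and PRPF18 (0.993), and IGF1R to CTSB (0.992), the lysosomal protease cathepsin B, and EVI5 (0.988). CTSB stood at stage means of 21.3, 99.3, 61.7 and 170.6 CPM. It shares the order of stages with IGF1R, which follows from its being picked for the highest r. IGFBP7 was closest to COG6 (0.992) and HSD17B11 (0.99), IGFBP5 to JOSD1 (0.99) and SMURF1 (0.986), and IGFBP4 to GK and HPS3 (both 0.989). IGFBP3 was closest to ATP6V0A1 (0.979) and ZNRF3 (0.975), IGFBP6 to ABTB2 (0.982) and GTF2A2 (0.966), IGFBP2 to ACTN4 (0.941) and CYP26B1 (0.918), and INSR to PRPF40B (0.947) and RNF123 (0.928). CYP26B1, which breaks down retinoic acid, was at 31.1 CPM in hAFE and 0.242 CPM or less in the first 2 stages. Among the members themselves, IGF1R and IGF2R had r = 0.914, IGFBP3 and IGFBP5 0.862, and IGFBP4 and IGF2R -0.88.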

How the data were processed

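Bulk RNA-seq of H1 cells at 4 stages, 2 libraries each, was analysed. The deposited tables hold RSEM expected counts and TPM per gene, with effective length and posterior SD of count as other columns, per the file headers. RSEM, DESeq2 and hg38 are named in the submitters' processing notes, while aligner and versions are not given in the sources used here. Gene identifiers matched GENCODE 29 for 58780 of 59526 rows; the other 746 held no counts.

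Counts were rounded, filtered with filterByExpr and scaled by TMM. A single edgeR (4.0.16) quasi-likelihood fit in R 4.3.3 held all 8 libraries and a term for each of the 4 stages, which leaves 4 residual degrees of freedom. SE is the log2 fold change divided by the square root of F. Alternatives used DESeq2 1.42.0, limma 3.58.1 on log2(TPM + 1), other scalings and filters, and libraries left out. The fit was tested on simulated data.

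The members and lists were chosen with earlier results of these data known. Named are all 10 members, IGF1, IGF2 and INS, for each comparison the called pathway genes that rose most (3) and fell most (3), if their higher stage reached 10 CPM, and for each member the 2 most alike genes. STC2, PAPPA2, the genes on the marker lists and a few called members of a role were named beyond this rule, after their values were seen. Mitochondrial genes took 11.4% to 19.2% of counts and 7SL RNA 3.76% to 11.7%, with no filter on them.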

Additional observations from a re-analysis of the deposited data

How the results depend on the processing

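Each result was recomputed under 17 alternatives, which gave 915 values over the 54 member changes: 800 kept direction and side of the threshold, 52 lost the call, 40 gained it and 23 reversed. With 1 library left out, the lone library of a stage is assumed to vary like the others.

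DESeq2, RLE scaling, a 1 CPM filter and removal of mitochondrial and small structural genes changed no call of a member. On log2(TPM + 1), which shifts the median of all genes by -0.26 (hDE against hESC), 0.48 (hAFE against hDE), 0.17 (hPFE against hAFE), 0.18 (hAFE against hESC), 0.70 (hPFE against hDE) and 0.35 (hPFE against hESC), the members called were 2, 1, 1, 3 and 8 in the first 5 of these. Reversed on this scale were IGFBP2 (-0.41, hDE against hESC, and 0.55, hPFE against hAFE), IGF1R (0.42) and IGF2R (0.42) in hAFE against hDE, INSR in hPFE against hAFE (0.14), hAFE against hESC (0.075) and hPFE against hESC (0.22), and IGF2R in hPFE against hDE (0.96, adjusted p = 0.0195). All genes called came to 812 in hPFE against hAFE (1306 in the reported fit), 4290 in hAFE against hESC (6938) and 10284 in hPFE against hDE (5867), and the other pathway genes to 16 in hDE against hESC and 4 in hPFE against hAFE. Without a count filter 5 members were called in hAFE against hDE and 5 in hPFE against hAFE, where 22 pathway genes and 3234 genes passed. Fitting only the 4 libraries of hPFE against hAFE left 0 members, 0 pathway genes and 52 genes. Length offsets left 0 members in hAFE against hDE and reversed IGFBP3 in hDE against hESC (0.11) and IGF1 in hPFE against hAFE (-0.20). The cause was not tested in any of these.

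The labels number the libraries 1 and 2 in each stage. Deviations of same-numbered libraries from their stage means correlated at -0.043 to 0.061 over the tested genes. With 2 libraries per stage, this cannot tell whether same-numbered libraries share a culture or a batch. With the replicate block, 1 member was called in hAFE against hDE in place of 2, the rise of IGFBP3 missed the threshold in hAFE against hDE (2.93, adjusted p = 0.0622) and hESC (2.77, adjusted p = 0.0581), ADAMTS1 in hAFE against hDE did too (adjusted p = 0.0501), and IGFBP2 in hPFE against hAFE reversed at 0.07.

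With 1 library left out, members called ranged from 3 to 6 in hDE against hESC, 0 to 3 in hAFE against hDE, 2 to 5 in hPFE against hAFE, 3 to 6 in hAFE against hESC, 1 to 5 in hPFE against hDE and 4 to 7 in hPFE against hESC. In the same order other pathway genes ranged from 15 to 33, 12 to 32, 2 to 11, 14 to 34, 16 to 34 and 21 to 41, and all genes from 3695 to 8465, 2435 to 6363, 479 to 1552, 2899 to 8178, 2630 to 6468 and 3822 to 8422. Results that reversed in at least 1 such fit were, in hDE against hESC, IGFBP3 (-0.37 to 0.009) and IGF1 (-3.01 to 2.49); in hAFE against hDE, IGFBP2 (-0.57 to 1.77), IGFBP4 (-0.41 to 0.71) and IGFBP7 (-0.24 to 2.56); in hPFE against hAFE, IGFBP2 (-0.85 to 1.48), IGFBP6 (-2.39 to 0.99), INSR (-0.23 to 0.12), IGF1 (-0.42 to 0.68) and IGF2 (-0.66 to 2.86); in hAFE against hESC, IGFBP2 (-0.48 to 1.86), IGFBP6 (-1.42 to 1.96) and IGFBP7 (-0.75 to 2.05); and INSR in hPFE against hDE (-0.014 to 0.34). Without mitochondrial and small structural genes the summed TPM of the 7 binding proteins was 218.7 (hESC), 198.7 (hDE), 536.4 (hAFE) and 1452 (hPFE) as stage means. At the depth of these libraries IGFBP1, and IGFBP7 before hPFE, could not be compared between stages.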
